A study of Homo sapiens with 12 samples.

Results

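The G2 and mitosis genes encode the proteins that carry a cell from the end of DNA replication through chromosome segregation to division. The 50 genes described here were taken by gene symbol, and the 76 probes that carry those symbols were followed over 12 Illumina HumanHT-12 V4.0 arrays. All 76 probes passed the detection filter, and the brightest probe of each of the 50 genes was detected on all 12 arrays. These 50 are among 12048 genes tested. Each array held RNA of MDA-MB-231, an established human triple-negative breast cancer cell line, after transfection with 100 nM small interfering RNA (siRNA). The control group was 3 arrays of cells given a scramble siRNA. The other 9 arrays held cells labelled as given siRNA against ARF1, a small GTPase of the Golgi, and the labels name a single pooled reagent for it. The source names divide these 9 into sets ARF-1, ARF-2 and ARF-4 of 3 arrays each, without saying what the numbers mean, and values given for the 3 sets run in that order. The labels do not give the time between transfection and harvest, nor whether arrays of a group came from separate cultures, so the p-values measure the spread between these arrays, which may be technical.

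Entry into mitosis is driven by the kinase CDK1 bound to cyclin A or cyclin B, which the CDC25 phosphatases switch on by removing inhibitory phosphates. Once chromosomes are condensed, kinetochores attach them to spindle microtubules, a checkpoint delays separation until every attachment is made, and the anaphase-promoting complex (APC/C) then marks cyclin B and securin for destruction. The genes are transcribed mainly in G2, from promoters bound by the MuvB, B-MYB and FOXM1 proteins at a cell cycle homology region (CHR), often with NF-Y at CCAAT boxes nearby. In cells that stop dividing, the DREAM complex occupies the same elements and holds the genes down. High levels of many of them mark fast-growing breast cancers.

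No probe of ARF1, the transcript named in the labels as the target, passed the test in any comparison with scramble. The brightest of its 3 probes, ILMN_1802203 of ARF1, read 11.59, 11.71 and 11.63 on the scramble arrays, 11.64, 11.79 and 11.72 on those of ARF-1, 11.87, 11.87 and 11.83 on those of ARF-2 and 11.73, 11.78 and 11.78 on those of ARF-4. Its difference over the 9 arrays was 0.14 (SE 0.08, adjusted p = 0.321) on the log2 scale, where SE is the standard error. The other 2 probes had differences of opposite sign over the 9 arrays. ILMN_2330948, detected on 12 arrays, differed by 0.16 (SE 0.11, adjusted p = 0.399), and the dim ILMN_1661458, detected on 8, by -0.18 (SE 0.14, adjusted p = 0.453). What follows therefore compares arrays by their labels. Mean raw signal was 371 to 503 on scramble arrays, 398 to 499 in ARF-1, 303 to 492 in ARF-2 and 337 to 518 in ARF-4, so the groups overlapped in brightness. All 5 markers of MDA-MB-231 (VIM, CD44, EGFR, CAV1, AXL) were detected on all 12 arrays. Their summed linear level was 37902 to 39562 on scramble arrays and lower on all 9 siRNA arrays without overlap, at 32119 to 33727 in ARF-1, 32552 to 33290 in ARF-2 and 31932 to 34106 in ARF-4. Of the 5, CAV1 was lower over the 9 arrays, at -0.46 (SE 0.10, adjusted p = 0.00903), and in both ARF-1 and ARF-2. CD44 was lower in ARF-1, at -0.32 (SE 0.09, adjusted p = 0.0198), and EGFR in ARF-4, at -0.41 (SE 0.09, adjusted p = 0.0129). Of 6 luminal markers ESR1, PGR and CDH1 were detected on 0 arrays, FOXA1 on 1, GATA3 on 4 and ERBB2 on 12, and their summed level was 382 to 394 on scramble arrays and 346 to 406 on the siRNA arrays. Of 4 leukocyte markers on the array PTPRC and CD3E were detected on 0, CD79A on 6 and CD14 on 12. Of 3 endothelial markers CDH5 and VWF were detected on 0 arrays, while PECAM1 was detected on 12 and differed by 0.38, 0.70 and -0.89 in the 3 sets, in the order given. The summed linear level of the 3 endothelial markers was 194 to 206 on scramble arrays, 242 to 251 in ARF-1, 291 to 310 in ARF-2 and 126 to 129 in ARF-4. That of the 4 leukocyte markers was 198 to 208, 239 to 281, 289 to 369 and 188 to 208 in the same order. Of these, CD14 was higher in ARF-1 (0.54) and ARF-2 (1.01). The part of these shifts in the results on mitotic genes was not tested.

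Most of the G2 and mitosis genes read lower on the arrays labelled as ARF1 siRNA, by amounts that were small on the log2 scale, and the ARF-1 and ARF-2 sets carried most of the calls. In ARF-1, 22 of the 50 genes were lower at an adjusted p below 0.05 (limma, adjusted over all 22195 kept probes), against 15.3% of all 12048 genes, and 2 were higher, against 15.2%. In ARF-2, 20 were lower, against 14.1% of all genes, and 2 were higher, against 14.7%. In ARF-4, 5 were lower, against 4.80%, and 0 were higher, against 4.99%. At an unadjusted p below 0.05, 21 members were lower in ARF-4, against 13% of all genes, and 3 were higher, against 13.4%. Over all 9 arrays taken as 1 condition, 14 members were lower, against 5.99% of genes, and 1 was higher, against 6.50%. With the set entered as a random block, these counts were 1 lower and 0 higher, and the lower member was CDC25B. The share of all genes was not counted under that fit. All comparisons with scramble share the same 3 scramble arrays. In RNA of a whole culture, fewer cells in G2 and mitosis and less RNA of these genes per cell cannot be told apart.

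The level of the group as a whole can be read from its median. The median difference of the 50 members from scramble was -0.26 in ARF-1, -0.25 in ARF-2 and -0.17 in ARF-4, where the median over all genes was -0.00319, 4.4e-04 and -5.0e-04. It was -0.22 over the 9 arrays. By count, 40 members lay below 0 in ARF-1, 41 in ARF-2 and 37 in ARF-4, where 50.4%, 49.95% and 50.1% of all genes did. On single arrays, the median deviation of the members from the scramble mean ran from -0.28 to -0.21 in ARF-1, from -0.27 to -0.22 in ARF-2 and from -0.20 to -0.10 in ARF-4. The scramble arrays themselves lay between -0.01 and 0.01. Scaling each array to its median, in place of quantile normalization, gave a median over all genes of -0.07 in ARF-1, -0.11 in ARF-2 and -0.08 in ARF-4. Over the 9 arrays it was -0.08. Relative to all genes the members' median was then -0.29, -0.31, -0.20 and -0.27. All 3 arrays of ARF-1 lay below all 3 scramble arrays for 32 members (23.9% of all genes), and above them for 3 (23.8%). In ARF-2 these counts were 29 (23.1%) and 4 (22.9%), in ARF-4 23 (16.4%) and 4 (17%), and over all 9 arrays 17 (7.16%) and 2 (7.60%).

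**Figure D1:**
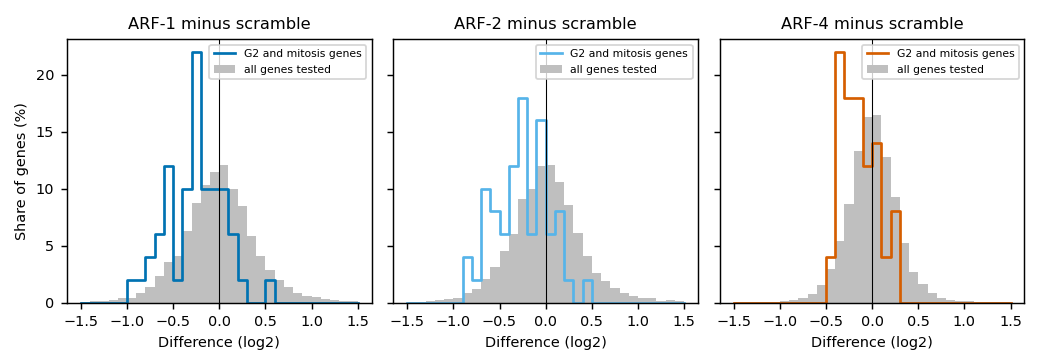
Share of genes per 0.1 of log2 difference from scramble, in one panel each for ARF-1, ARF-2 and ARF-4, for the 50 G2 and mitosis genes and for all 12048 genes tested. The members are shifted to the left of all genes in each panel, with medians of -0.26, -0.25 and -0.17.

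The scramble group has 3 arrays, and the calls over the 9 arrays depend on each of them. Without scramble replicate 1, 2 or 3 the count of lower members was 4, 0 or 4, and none of the 15 calls held without every single array in turn, with an adjusted p between 0.0503 and 0.199 where a call was lost. For fits without 1 array or with other processing, here and below, the share of all genes called was not counted. Whether such losses are particular to the members was therefore not tested. RACGAP1 was lost without any 1 of the 12 arrays, and NDC80 also without ARF-1 replicate 1 or 2. Of 24 calls in ARF-1, 17 held without any 1 array. The 7 others were CCNA2, CENPE, ECT2, KIF11, KIF2C, RACGAP1 and UBE2C, each lost without scramble replicate 3 or replicate 2 and without at least 1 ARF-1 array, with an adjusted p of 0.0508 to 0.147. Of 22 calls in ARF-2, 17 held, with an adjusted p of 0.0506 to 0.160 for the 5 lost. Of these, KIF14 was lost without any 1 array. KIF11 was lost without scramble replicate 3, PRC1 without scramble replicate 1, KIF20A without scramble replicate 1 or 2 and RACGAP1 without scramble replicate 2 or 3. KIF11 was also lost without ARF-2 replicate 1, KIF20A without ARF-2 replicate 1 or 2 and RACGAP1 without ARF-2 replicate 1, 2 or 3. None of the 5 calls in ARF-4 held: the count of lower members was 1, 0 and 1 without scramble replicate 1, 2 and 3, and 1, 1 and 2 without ARF-4 replicate 1, 2 and 3. With each array scaled to its median, the count of lower members was 13 in ARF-1, 0 in ARF-4 and 9 over the 9 arrays, while without background correction it was 19 in ARF-4 and 22 over the 9 arrays.

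The 8 genes of the cyclin-CDK1 switch held members called in both directions. Of these 8, 4 were lower and 1 higher in ARF-1, 3 and 1 for ARF-2, and 1 and 0 in ARF-4. Here and for the roles below, 15.3% of all genes were lower and 15.2% higher in ARF-1. These shares were 14.1% and 14.7% in ARF-2, and 4.80% and 4.99% in ARF-4. CDK1, the kinase at the centre of the switch, gave log2 levels of 11.22, 11.36 and 11.06 on the scramble arrays, 11.07, 11.26 and 11.01 on those of ARF-1, 11.05, 11.12 and 11.25 on those of ARF-2 and 10.93, 10.95 and 11.19 on those of ARF-4. Its groups overlap, and the difference over the 9 arrays was -0.12 (SE 0.10, adjusted p = 0.492), with a 95% interval of -0.34 to 0.10. A second CDK1 probe, ILMN_1710428, was lower at -0.38 in ARF-1 (adjusted p = 0.0215) and at -0.61 in ARF-4 (adjusted p = 0.00419), so the probes of this gene disagree. CCNB1, cyclin B1, read 10.47, 10.30 and 10.49 on the scramble arrays, 10.11, 10.01 and 9.99 on those of ARF-1, 9.85, 9.99 and 9.93 on those of ARF-2 and 10.24, 10.23 and 10.34 on those of ARF-4. ARF-1 and ARF-2 lie wholly below scramble and ARF-4 overlaps it. The differences were -0.38 (SE 0.09, adjusted p = 0.00791) in ARF-1, -0.49 (SE 0.09, adjusted p = 0.00188) in ARF-2 and -0.15 (SE 0.09, adjusted p = 0.355) in ARF-4.

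CCNF, cyclin F, a substrate receptor of an SCF ubiquitin ligase, read 9.65, 9.61 and 9.70 on the scramble arrays, 9.19, 9.20 and 8.82 on those of ARF-1, 9.21, 9.003 and 8.89 on those of ARF-2 and 9.79, 9.54 and 9.45 on those of ARF-4. ARF-4 overlaps scramble and the other sets lie below both. The differences were -0.58 (SE 0.13, adjusted p = 0.00597), -0.61 (SE 0.13, adjusted p = 0.00471) and -0.06 (SE 0.13, adjusted p = 0.841) in the 3 sets. CDC25B, a phosphatase that starts CDK1 activation, read 10.86, 11.001 and 10.66 on the scramble arrays, 10.04, 10.04 and 9.95 on those of ARF-1, 10.16, 10.25 and 10.12 on those of ARF-2 and 10.54, 10.37 and 10.36 on those of ARF-4. Every one of the 9 arrays lies below every scramble array. Over the 9 arrays its level was 1.56-fold lower than in scramble, with a difference of -0.64 (SE 0.13, adjusted p = 0.00599), and the set differences were -0.83 (SE 0.10, adjusted p = 1.3e-04), -0.66 (SE 0.10, adjusted p = 6.4e-04) and -0.42 (SE 0.10, adjusted p = 0.0264).

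CDC25C, the phosphatase that completes CDK1 activation, ran the other way. It read 7.87, 7.85 and 7.84 on the scramble arrays, 8.53, 8.27 and 8.40 on those of ARF-1, 8.11, 8.35 and 8.51 on those of ARF-2 and 8.17, 8.21 and 8.03 on those of ARF-4, and all 9 arrays lie above the scramble arrays. It was the 1 member called higher over the 9 arrays, at 0.43 (SE 0.11, adjusted p = 0.0256), and rose in ARF-1 by 0.54 (SE 0.11, adjusted p = 0.00394) and in ARF-2 by 0.47 (SE 0.11, adjusted p = 0.0102). Its second probe, ILMN_1725260, was also higher in both sets, but the third, ILMN_2407619, differed by 0.11, 0.21 and 0.03 and passed in none. Over the 9 arrays neither of these probes passed, at 0.39 (adjusted p = 0.0606) and 0.12 (adjusted p = 0.572). Among the other members of the switch, CCNA2, cyclin A2, was lower in ARF-1 at -0.29 (SE 0.09, adjusted p = 0.0251). CCNB2, cyclin B2, and CKS2, a CDK1-binding subunit, passed in no set, with differences between -0.26 and -0.07.

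FOXM1 is the forkhead transcription factor that binds with MuvB at these promoters and activates G2 genes, and its own level differed among the sets. It read 9.60, 9.40 and 9.49 on the scramble arrays, 8.84, 8.84 and 9.01 on those of ARF-1, 9.04, 8.95 and 8.79 on those of ARF-2 and 9.75, 9.63 and 9.88 on those of ARF-4. ARF-1 and ARF-2 lie below scramble on every array, and ARF-4 lies above it on every array. The difference was -0.60 (SE 0.10, adjusted p = 0.00126) in ARF-1, -0.57 (SE 0.10, adjusted p = 0.00182) in ARF-2 and 0.25 (SE 0.10, adjusted p = 0.166) in ARF-4, so that ARF-4 was not called against scramble. ARF-4 exceeded ARF-1 by 0.85 (SE 0.10, adjusted p = 1.9e-04) and ARF-2 by 0.83 (SE 0.10, adjusted p = 2.3e-04). The second FOXM1 probe gave -0.64, -0.45 and 0.34 against scramble, in the same directions.

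**Figure D2:**
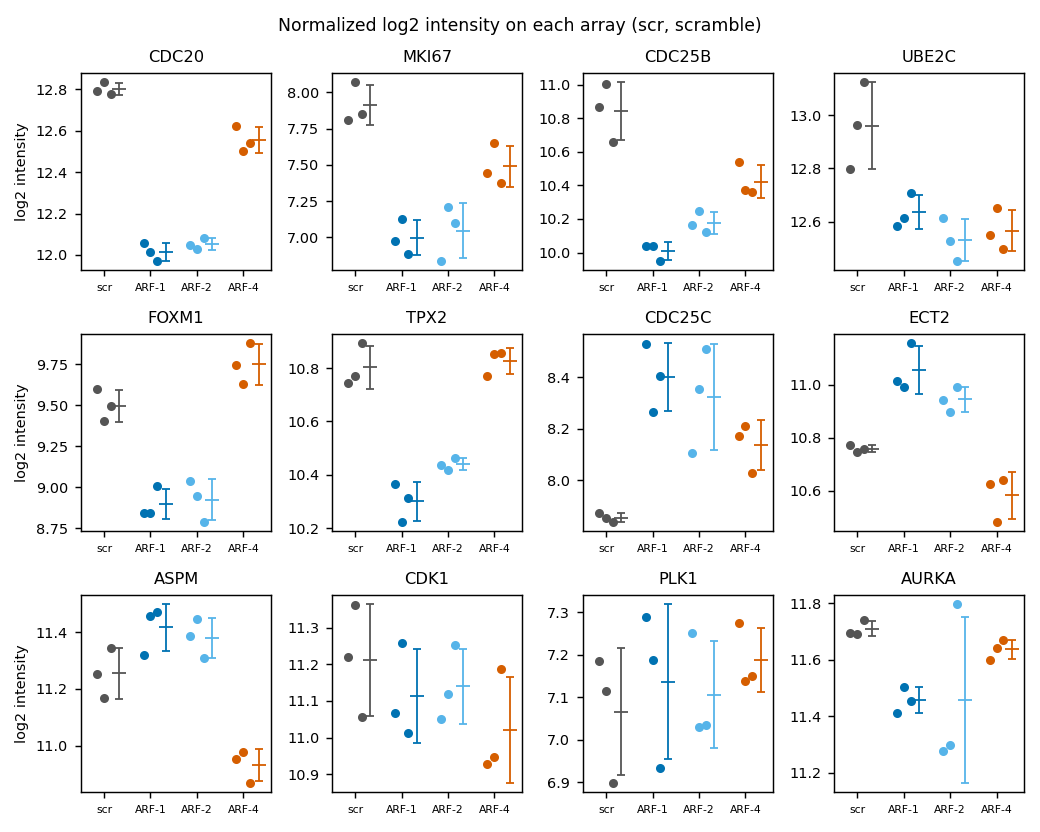
Log2 level on each of the 12 arrays for 12 members, by group (scr, scramble), with points for arrays and bars for the mean with 1 SD. CDC20, MKI67 and CDC25B lie below scramble in all 3 sets, FOXM1 is lower in ARF-1 and ARF-2 only, CDC25C is higher, and PLK1 overlaps scramble throughout.

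The 4 mitotic kinases outside the passenger complex gave 0 calls at their brightest probes in any comparison with scramble by limma. PLK1, which drives centrosome maturation and mitotic entry, read 7.19, 7.12 and 6.90 on the scramble arrays, 7.29, 7.19 and 6.93 on those of ARF-1, 7.25, 7.03 and 7.04 on those of ARF-2 and 7.28, 7.14 and 7.15 on those of ARF-4. All groups overlap, and the difference over the 9 arrays was 0.08 (SE 0.10, adjusted p = 0.677), with a 95% interval of -0.14 to 0.30. AURKA, the kinase of spindle poles, read 11.70, 11.69 and 11.74 on the scramble arrays, 11.41, 11.50 and 11.46 on those of ARF-1, 11.28, 11.30 and 11.80 on those of ARF-2 and 11.60, 11.64 and 11.67 on those of ARF-4. One ARF-2 array, replicate 3, lies above scramble while the other 2 ARF-2 arrays lie below it, and the difference over the 9 arrays was -0.19 (SE 0.11, adjusted p = 0.3). A second AURKA probe, ILMN_2357438, was lower at -0.37 in ARF-1 and -0.45 in ARF-2 (adjusted p = 0.0155 and 0.00554). The centrosome kinase NEK2 differed by 0.01 and PBK, a mitotic kinase of the MAPKK-related family, by 0.20 over the 9 arrays, the smallest and largest differences of these 4.

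The chromosomal passenger complex carries Aurora B to centromeres and then to the spindle midzone. Its members BIRC5 and CDCA8 were lower in ARF-1 and ARF-2, and the kinase passed in no comparison with scramble. BIRC5, survivin, read 10.34, 10.27 and 10.31 on the scramble arrays, 9.63, 9.87 and 9.74 on those of ARF-1, 9.73, 9.60 and 9.56 on those of ARF-2 and 9.95, 9.90 and 10.16 on those of ARF-4. All 9 arrays lie below scramble, with differences of -0.51 (SE 0.12, adjusted p = 0.0149) over the 9 arrays, -0.56 (SE 0.10, adjusted p = 0.00161) in ARF-1, -0.67 (SE 0.10, adjusted p = 5.2e-04) in ARF-2 and -0.30 (SE 0.10, adjusted p = 0.0849) in ARF-4. A second, dimmer BIRC5 probe, ILMN_1803124, was lower in ARF-1 and ARF-2, at -0.58 and -0.33. Over the 9 arrays that probe overlapped scramble and did not pass, at -0.37 (adjusted p = 0.0766). CDCA8, borealin, read 9.80, 9.79 and 9.78 on the scramble arrays, 8.98, 8.77 and 9.24 on those of ARF-1, 8.86, 8.74 and 9.10 on those of ARF-2 and 9.47, 9.39 and 9.55 on those of ARF-4. All 9 arrays again lie below scramble, with a difference of -0.67 (SE 0.17, adjusted p = 0.0198) over the 9, -0.80 (SE 0.13, adjusted p = 6.6e-04) in ARF-1, -0.89 (SE 0.13, adjusted p = 3.5e-04) in ARF-2 and -0.32 (SE 0.13, adjusted p = 0.143) in ARF-4. AURKB, the kinase of the complex, read 10.44, 10.40 and 10.30 on the scramble arrays, 10.16, 10.10 and 10.39 on those of ARF-1, 10.36, 10.03 and 10.22 on those of ARF-2 and 10.61, 10.56 and 10.59 on those of ARF-4. Both ARF-1 and ARF-2 overlap scramble and ARF-4 lies above it. AURKB passed in no comparison with scramble, at -0.16 (SE 0.11, adjusted p = 0.3), -0.18 (SE 0.11, adjusted p = 0.265) and 0.21 (SE 0.11, adjusted p = 0.269), yet ARF-4 exceeded ARF-1 by 0.37 (SE 0.11, adjusted p = 0.0279) and ARF-2 by 0.39 (SE 0.11, adjusted p = 0.0247).

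Of the 5 spindle checkpoint genes, 0 were called at their brightest probe in any set by limma. BUB1B, the BUBR1 component of the mitotic checkpoint complex, had the largest difference over the 9 arrays, -0.32 (SE 0.11, adjusted p = 0.0806), and BUB1, the kinase that recruits it to kinetochores, the smallest, 0.04 (SE 0.08, adjusted p = 0.823). MAD2L1, which binds CDC20 to hold the APC/C inactive, differed by -0.28 (SE 0.11, adjusted p = 0.107) and TTK, the checkpoint kinase MPS1, differed by -0.20 (SE 0.10, adjusted p = 0.242). BUB3, the WD-repeat partner of BUB1 and BUBR1, has 4 kept probes that disagree. Its brightest probe differed by -0.19, ILMN_1778764 was lower at -0.63, -0.66 and -0.73 in the 3 sets (adjusted p = 0.00222, 0.00181 and 0.00283), ILMN_2386100 was lower in ARF-1 and ARF-2, and ILMN_2245180 in none.

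Among the 4 genes of protein destruction, the APC/C activator CDC20 had the smallest adjusted p of any member in ARF-1 and ARF-2. It read 12.79, 12.83 and 12.78 on the scramble arrays, 12.06, 12.02 and 11.97 on those of ARF-1, 12.05, 12.03 and 12.08 on those of ARF-2 and 12.62, 12.50 and 12.54 on those of ARF-4. No siRNA array reaches the scramble range, all lying below it, and ARF-4 lies between scramble and the other sets. Its level was 1.72-fold lower than scramble in ARF-1 and 1.68-fold lower in ARF-2, with differences of -0.79 (SE 0.08, adjusted p = 3.0e-05) and -0.75 (SE 0.08, adjusted p = 4.9e-05), against -0.24 (SE 0.08, adjusted p = 0.0789) in ARF-4. UBE2C, the ubiquitin-conjugating enzyme of the APC/C, read 12.80, 12.96 and 13.12 on the scramble arrays, 12.58, 12.61 and 12.71 on those of ARF-1, 12.61, 12.53 and 12.45 on those of ARF-2 and 12.55, 12.65 and 12.50 on those of ARF-4. Every one of the 9 siRNA arrays lies below scramble, with a difference of -0.38 (SE 0.09, adjusted p = 0.0173) over the 9, and UBE2C was lower in each of the 3 sets (-0.33, -0.43 and -0.40). A second UBE2C probe, ILMN_2265654, gave -0.92, -1.004 and -0.38, and passed in ARF-1 and ARF-2. CDCA3, an F-box-like protein that targets WEE1 for destruction, read 10.39, 10.35 and 10.69 on the scramble arrays, 9.90, 10.01 and 9.84 on those of ARF-1, 9.63, 9.80 and 9.98 on those of ARF-2 and 10.40, 10.27 and 10.38 on those of ARF-4. ARF-4 overlaps scramble, and ARF-1 and ARF-2 lie below, at -0.56 (SE 0.12, adjusted p = 0.00427) and -0.67 (SE 0.12, adjusted p = 0.00144) against -0.12 (SE 0.12, adjusted p = 0.586). PTTG1, securin, the inhibitor of separase, gave -0.00, 0.07 and 0.01 in the 3 sets and passed in none.

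Of 7 centromere and kinetochore genes, 3 were lower in ARF-1, 2 in ARF-2 and 1 in ARF-4. NDC80, the kinetochore subunit that grips microtubules, read 9.70, 9.62 and 9.51 on the scramble arrays, 9.02, 9.01 and 8.81 on those of ARF-1, 8.90, 9.23 and 8.93 on those of ARF-2 and 9.27, 9.35 and 9.49 on those of ARF-4. The 9 siRNA arrays all lie below scramble, with a difference of -0.50 (SE 0.14, adjusted p = 0.0319) over the 9, -0.66 (SE 0.11, adjusted p = 0.00118) in ARF-1, -0.59 (SE 0.11, adjusted p = 0.00263) in ARF-2 and -0.24 (SE 0.11, adjusted p = 0.235) in ARF-4. HJURP, the chaperone that loads the centromeric histone, read 10.09, 10.04 and 10.001 on the scramble arrays, 9.78, 9.65 and 9.70 on those of ARF-1, 9.71, 9.72 and 9.72 on those of ARF-2 and 9.69, 9.73 and 9.76 on those of ARF-4. The 9 arrays lie close together below scramble, at -0.33 (SE 0.08, adjusted p = 0.0152), and the differences in the 3 sets were -0.34, -0.33 and -0.32. CENPE, a kinetochore motor, was lower in ARF-1 at -0.25 (SE 0.08, adjusted p = 0.0456), while its second probe did not pass there at -0.33 (adjusted p = 0.0706). NUF2 and SPC25, partners of NDC80 in its complex, CENPA, the centromeric histone itself, and CENPF, a large kinetochore protein, passed in no set at their brightest probes, and CENPF was the member of this role nearest 0 at -0.05. One weak NUF2 probe, ILMN_2406724, detected on 4 of 12 arrays, was lower in all 3 sets.

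Of 9 spindle genes, 4 were lower in ARF-1, 3 in ARF-2 and 1 in ARF-4, the last being ASPM. TPX2, which activates Aurora A and nucleates spindle microtubules, read 10.74, 10.77 and 10.89 on the scramble arrays, 10.36, 10.22 and 10.31 on those of ARF-1, 10.44, 10.42 and 10.46 on those of ARF-2 and 10.77, 10.85 and 10.86 on those of ARF-4. ARF-4 overlaps scramble while ARF-1 and ARF-2 lie below, at -0.50 (SE 0.08, adjusted p = 9.7e-04) and -0.36 (SE 0.08, adjusted p = 0.00773) against 0.02 (SE 0.08, adjusted p = 0.908). KIF11, the motor that pushes spindle poles apart, read 9.99, 9.86 and 10.18 on the scramble arrays, 9.58, 9.65 and 9.53 on those of ARF-1, 9.46, 9.72 and 9.62 on those of ARF-2 and 9.68, 9.60 and 9.88 on those of ARF-4. ARF-4 overlaps scramble, and the differences were -0.38 (SE 0.10, adjusted p = 0.0293) over the 9 arrays, -0.42 (SE 0.11, adjusted p = 0.0152) in ARF-1 and -0.41 (SE 0.11, adjusted p = 0.0181) in ARF-2. A second KIF11 probe, ILMN_1794539, was lower in ARF-1 and ARF-2, at -0.59 and -0.46. Over the 9 arrays that probe did not pass, at -0.42 (adjusted p = 0.0541). KIF4A, a chromosome and midzone motor, read 9.07, 9.19 and 9.24 on the scramble arrays, 8.58, 8.65 and 8.59 on those of ARF-1, 8.47, 8.51 and 8.62 on those of ARF-2 and 8.90, 8.84 and 9.09 on those of ARF-4. Both ARF-1 and ARF-2 lie below scramble, at -0.56 (SE 0.10, adjusted p = 0.00112) and -0.63 (SE 0.10, adjusted p = 5.5e-04), and ARF-4, which overlaps it, differed by -0.22 (SE 0.10, adjusted p = 0.181).

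ASPM, which organises microtubule minus ends at spindle poles, differed from this order of sets. It read 11.25, 11.17 and 11.35 on the scramble arrays, 11.32, 11.46 and 11.47 on those of ARF-1, 11.39, 11.45 and 11.31 on those of ARF-2 and 10.95, 10.98 and 10.87 on those of ARF-4. The ARF-4 arrays lie below all the others, and ARF-1 and ARF-2 overlap scramble. The difference was -0.32 (SE 0.09, adjusted p = 0.0456) in ARF-4, against 0.16 (SE 0.09, adjusted p = 0.216) in ARF-1 and 0.13 (SE 0.09, adjusted p = 0.35) in ARF-2. KIF2C, a kinesin that removes tubulin from microtubule ends, was lower in ARF-1 at -0.37 (SE 0.10, adjusted p = 0.0168). HMMR, NUSAP1, CKAP2 and DLGAP5, all spindle-associated proteins, passed in no set at their brightest probes, with differences over the 9 arrays from -0.14 for DLGAP5 to 0.04 for HMMR. A second DLGAP5 probe, ILMN_1749829, was lower in ARF-1 and ARF-2, at -0.47 and -0.57.

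The 7 cytokinesis genes gave 3 lower and 1 higher in ARF-1, 4 lower and 1 higher in ARF-2, and 0 in ARF-4. PRC1, which bundles the antiparallel microtubules of the midzone, read 11.63, 11.52 and 11.51 on the scramble arrays, 11.18, 11.05 and 11.27 on those of ARF-1, 11.20, 11.23 and 11.21 on those of ARF-2 and 11.31, 11.32 and 11.27 on those of ARF-4. All 9 arrays lie below scramble, with a difference of -0.33 (SE 0.09, adjusted p = 0.0261), with -0.38 (SE 0.09, adjusted p = 0.00602) in ARF-1 and -0.34 (SE 0.09, adjusted p = 0.012) in ARF-2. KIF23, the centralspindlin motor MKLP1, read 9.85, 9.91 and 9.71 on the scramble arrays, 9.21, 9.14 and 9.23 on those of ARF-1, 9.13, 9.38 and 9.39 on those of ARF-2 and 9.66, 9.56 and 9.31 on those of ARF-4. Every one of the 9 siRNA arrays lies below scramble, with a difference of -0.49 (SE 0.12, adjusted p = 0.0171), with -0.63 (SE 0.11, adjusted p = 0.00145), -0.52 (SE 0.11, adjusted p = 0.00485) and -0.31 (SE 0.11, adjusted p = 0.106) by set. A second KIF23 probe, ILMN_1716553, had the opposite sign and passed nowhere, at 0.08, 0.21 and 0.14. RACGAP1, the other centralspindlin subunit, read 10.49, 10.62 and 10.58 on the scramble arrays, 10.32, 10.23 and 10.37 on those of ARF-1, 10.29, 10.29 and 10.33 on those of ARF-2 and 10.32, 10.32 and 10.31 on those of ARF-4. The 9 siRNA arrays all lie below scramble by a small step, at -0.26 (SE 0.08, adjusted p = 0.0493), a call lost without any 1 array as given above. Its second probe passed in no set.

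ECT2, the exchange factor that centralspindlin recruits to activate RhoA, was higher in ARF-1 and lowest in ARF-4. It read 10.77, 10.75 and 10.76 on the scramble arrays, 11.02, 10.99 and 11.16 on those of ARF-1, 10.94, 10.90 and 10.99 on those of ARF-2 and 10.63, 10.48 and 10.64 on those of ARF-4. Both ARF-1 and ARF-2 lie above scramble and ARF-4 lies below it. The difference in ARF-1 was 0.30 (SE 0.09, adjusted p = 0.0242), while 0.19 (SE 0.09, adjusted p = 0.142) in ARF-2 and -0.18 (SE 0.09, adjusted p = 0.246) in ARF-4 did not pass. KIF20A, the motor MKLP2, was lower in ARF-2 at -0.34 (SE 0.11, adjusted p = 0.0323), and KIF14, a citron kinase partner, was higher there at 0.26 (SE 0.09, adjusted p = 0.0456). ANLN, anillin of the contractile ring, read below scramble on all 9 arrays but passed in no comparison, at -0.31 (SE 0.10, adjusted p = 0.0691).

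TOP2A and MKI67, the pair of chromosome and proliferation genes, were both lower in ARF-1 and ARF-2. TOP2A, the topoisomerase that untangles sister chromatids, read 12.33, 12.46 and 12.30 on the scramble arrays, 11.90, 11.89 and 11.71 on those of ARF-1, 11.87, 11.71 and 11.84 on those of ARF-2 and 11.99, 12.07 and 11.99 on those of ARF-4. All 9 arrays lie below scramble, with a difference of -0.48 (SE 0.10, adjusted p = 0.00732) over the 9 and -0.53 (SE 0.09, adjusted p = 0.00127), -0.56 (SE 0.09, adjusted p = 9.7e-04) and -0.34 (SE 0.09, adjusted p = 0.0382) by set. MKI67, the proliferation antigen Ki-67, which coats mitotic chromosomes, read 7.81, 8.07 and 7.85 on the scramble arrays, 6.98, 7.13 and 6.89 on those of ARF-1, 6.83, 7.21 and 7.10 on those of ARF-2 and 7.45, 7.65 and 7.38 on those of ARF-4. Every one of the 9 siRNA arrays lies below scramble, and its difference over the 9 was the largest of any member, -0.73 (SE 0.16, adjusted p = 0.00877), or 1.66-fold lower. By set it was -0.91 (SE 0.12, adjusted p = 2.4e-04), -0.86 (SE 0.12, adjusted p = 3.8e-04) and -0.42 (SE 0.12, adjusted p = 0.0577), the last not passing.

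**Figure D3:**
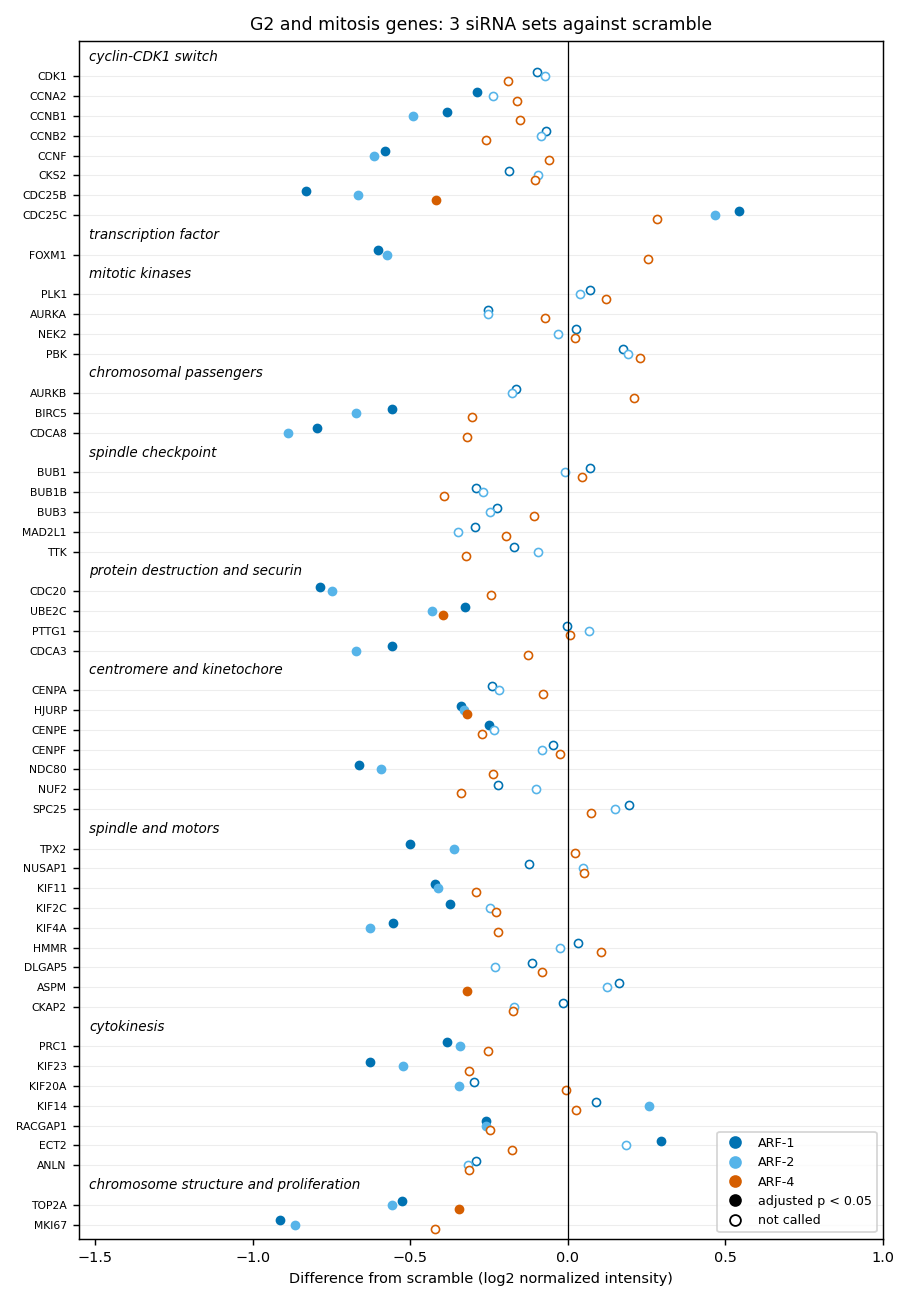
Log2 difference from scramble of each of the 50 members, grouped by role, in the 3 sets, with members past the adjusted p threshold marked. Most points lie left of 0, CDC25C lies to the right in all 3 sets, and FOXM1, ASPM and ECT2 show ARF-4 apart from the other sets.

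The sets differed from one another for 15 of the 50 members by the moderated F-test in limma, against 24.1% of all genes. This share, 30%, is near that background and is no result about the members as a group. ARF-4 was higher than ARF-1 for 11 members, against 12% of genes, and lower for 2, against 11.9%. Its arrays lay wholly above those of ARF-1 for 19 members (21% of genes) and wholly below for 4 (20.4%). ARF-4 was higher than ARF-2 for 13 members, against 11.2%, and lower for 2, against 12.3%, and lay wholly above for 17 (20.1%) and below for 3 (20.5%). These comparisons share the ARF-4 arrays. In both, the 2 lower members at their brightest probes were ASPM and ECT2. For these, ARF-4 minus ARF-1 was -0.48 (SE 0.09, adjusted p = 0.00255) and -0.47 (SE 0.09, adjusted p = 0.00239). ARF-4 minus ARF-2 was -0.45 (SE 0.09, adjusted p = 0.00422) and -0.36 (SE 0.09, adjusted p = 0.0112). Further probes called lower in ARF-4 than in ARF-2 were ILMN_1710428 of CDK1 (-0.46, adjusted p = 0.00995), ILMN_1725260 of CDC25C (-0.40, adjusted p = 0.02) and ILMN_2245180 of BUB3 (-0.59, adjusted p = 0.0324). Those called higher were ILMN_2386100 of BUB3 (0.48, adjusted p = 0.00915) and further probes of FOXM1, UBE2C and DLGAP5. ARF-2 minus ARF-1 gave 0 lower and 0 higher members by limma, against 0.0166% and 0.0581% of genes, with 0 lower and 0 higher at an unadjusted p below 0.05, against 3.93% and 4.94%, and the arrays separated for 1 member below (7.27%) and 4 above (8.53%).

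The smallest adjusted p of the F-test belonged to FOXM1 (1.9e-04), then CDC20 (7.1e-04), TPX2 (0.00209), ASPM (0.00338) and ECT2 (0.00462). These 5 are the members that held in the F-test without any 1 array. CDC20 was 0.54 (SE 0.08, adjusted p = 5.8e-04) higher in ARF-4 than in ARF-1 and 0.50 (SE 0.08, adjusted p = 9.7e-04) higher than in ARF-2, and for TPX2 these were 0.53 (SE 0.08, adjusted p = 0.00104) and 0.39 (SE 0.08, adjusted p = 0.00683). Without ARF-4 replicate 1, 2 or 3, 7, 9 or 8 members passed the F-test in place of 15. Under median scaling only FOXM1 passed it.

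**Figure D4:**
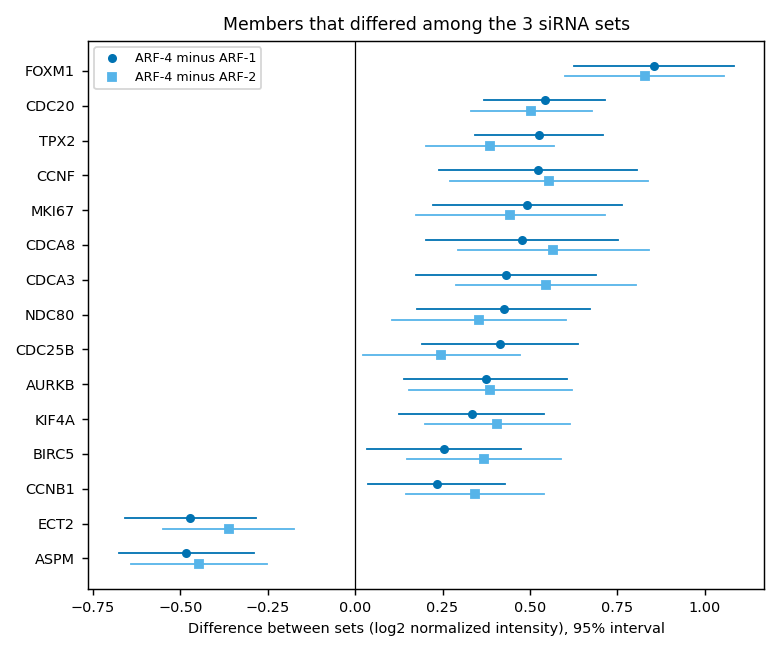
Log2 difference of ARF-4 minus ARF-1 and ARF-4 minus ARF-2 with 95% confidence intervals for the 15 members past the F-test. FOXM1 lies farthest right, at 0.85 and 0.83, and ASPM and ECT2 are the 2 members left of 0.

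The promoters of the members often hold the CHR and CCAAT elements named above for G2 genes. The choice by gene name did not use sequence. The elements were picked as those known for this class of genes, so their share is a description and no test. RefSeq windows (GRCh38.p14) from 250 bases before to 50 after a start site were at hand for 41 of the 50 genes, as 51 windows. A CHR, TTTGAA or TTTAAA on either strand, was present in 78.4% of these windows, against 24% of all 35116 promoter windows. The form TTTGAA stood in 64.7% against 15.2%, and TTTAAA in 31.4% against 12.2%. A CCAAT box, CCAAT on either strand (ATTGG on the other), stood in 76.5% against 34.6%, and both elements together in 62.7% against 9.27%. A match is only a run of letters and says nothing of binding in these cells.

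The 6 promoters printed below are those of members described array by array that hold a CHR in the 150 bases before the start, taken in the order of adjusted p over the 9 arrays, so that the elements behind these percentages can be seen. The windows are MKI67 at chr10:128126424-128126573, HJURP at chr2:233854536-233854685 and CDC25C at chr5:138331805-138331954 on the minus strand, and KIF23 at chr15:69414199-69414348, CDCA8 at chr1:37692366-37692515 and CDC20 at chr1:43358831-43358980 on the plus strand, each read 5′ to 3′ toward the gene, and capitals mark CHR and CCAAT elements.
MKI67: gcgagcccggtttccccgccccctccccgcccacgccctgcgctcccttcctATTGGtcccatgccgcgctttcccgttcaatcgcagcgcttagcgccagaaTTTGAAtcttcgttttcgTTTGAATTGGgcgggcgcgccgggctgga
HJURP: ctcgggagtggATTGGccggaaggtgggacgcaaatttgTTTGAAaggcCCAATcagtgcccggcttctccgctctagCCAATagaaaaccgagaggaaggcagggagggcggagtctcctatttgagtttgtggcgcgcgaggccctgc
KIF23: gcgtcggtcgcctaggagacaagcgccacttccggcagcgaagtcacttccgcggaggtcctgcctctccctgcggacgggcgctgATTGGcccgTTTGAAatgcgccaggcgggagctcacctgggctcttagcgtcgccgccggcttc
CDCA8: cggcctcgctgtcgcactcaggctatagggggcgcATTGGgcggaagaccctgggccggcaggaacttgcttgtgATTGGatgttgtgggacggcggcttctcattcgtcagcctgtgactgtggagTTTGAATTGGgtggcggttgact
CDC20: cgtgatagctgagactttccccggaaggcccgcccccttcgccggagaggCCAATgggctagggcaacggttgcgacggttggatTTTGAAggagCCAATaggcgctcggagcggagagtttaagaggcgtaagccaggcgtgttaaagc
CDC25C: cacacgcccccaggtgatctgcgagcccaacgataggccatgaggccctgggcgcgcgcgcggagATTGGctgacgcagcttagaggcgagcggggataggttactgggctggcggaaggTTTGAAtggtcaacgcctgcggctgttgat
In MKI67 and CDCA8 the CHR runs directly into a CCAAT box on the other strand, so that the elements overlap. CDC25C was higher, and MKI67, CDC20, CDCA8, HJURP and KIF23 were lower. Only promoters with a CHR were printed, so its presence in all 6 follows from the choice. Over all windows of the members, a CHR stood in 82.4% of 17 windows of members lower in both ARF-1 and ARF-2. In the 34 windows of the other members it stood in 76.5%. Whether the element goes with the direction of a member was not tested.

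Other genes of the pathway were taken as 7 lists of 173 names, of which 163 were tested. In ARF-1, 67 were lower and 15 higher, against 15.3% and 15.2% of all genes. In ARF-2 these were 63 and 11, against 14.1% and 14.7%. In ARF-4 they were 10 and 9, against 4.80% and 4.99%. Over the 9 arrays 22 were lower and 6 higher, against 5.99% and 6.50%. The same shares of all genes stand beside the counts of each list below. The list of 20 cohesin, condensin and sister separation genes gave 10 lower and 0 higher in each of ARF-1 and ARF-2, and 1 and 0 in ARF-4. SGO2, shugoshin 2, which protects centromeric cohesin, was lower over the 9 arrays at -0.50 (SE 0.11, adjusted p = 0.0108), and SMC2, a condensin core ATPase, at -0.38 (SE 0.10, adjusted p = 0.0264). The cohesin ATPase SMC3 was at -0.32 (SE 0.10, adjusted p = 0.0471). For genes outside the members, here and below, calls over the 9 arrays were not examined without single arrays or with the random block.

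Of 30 other kinetochore genes, 13 were lower and 4 higher in ARF-1, 12 and 3 for ARF-2, and 1 and 2 in ARF-4. SKA1, which couples kinetochores to shrinking microtubules, was at -0.77 (SE 0.16, adjusted p = 0.00841) over the 9 arrays, and the checkpoint protein ZWILCH of the RZZ complex was at -0.46 (SE 0.12, adjusted p = 0.0233). CENPW, a histone-fold centromere protein, was higher at 0.47 (SE 0.12, adjusted p = 0.0255). Of 23 other spindle and cytokinesis genes, 10 were lower and 0 higher in ARF-1, 10 and 1 for ARF-2, and 2 and 0 in ARF-4. DEPDC1 was at -0.69 (SE 0.10, adjusted p = 6.2e-04), PSRC1, a spindle protein, at -0.37 (SE 0.10, adjusted p = 0.0255) and STMN1, stathmin, which binds tubulin dimers, at -0.45 (SE 0.13, adjusted p = 0.0358).

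The 15 DREAM, MuvB and NF-Y factors gave 5 lower and 3 higher in ARF-1, 6 and 1 for ARF-2, and 2 and 1 in ARF-4. RBBP4, a MuvB subunit, was lower over the 9 arrays at -0.52 (SE 0.10, adjusted p = 0.00583), and NFYC, an NF-Y subunit, at -0.61 (SE 0.14, adjusted p = 0.0119). E2F5, a repressor E2F, was higher at 0.39 (SE 0.11, adjusted p = 0.0309). The 15 tested genes of the APC/C and its regulators gave 2 lower and 3 higher in ARF-1, 3 and 1 for ARF-2, and 0 and 0 in ARF-4. The subunit ANAPC16 was lower at -0.51 (SE 0.12, adjusted p = 0.0152), CDC26 higher at 0.33 (SE 0.10, adjusted p = 0.0382), and ANAPC13 did not pass at 0.31 (SE 0.10, adjusted p = 0.0535).

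The list of G2 checkpoint and CDK1 inhibition genes also names CDC25A, a CDC25 phosphatase, so its counts are not of inhibitors alone. Its 15 tested genes gave 6 lower and 3 higher in each of ARF-1 and ARF-2, and 4 and 0 in ARF-4. PLK2, a stress-responsive polo-like kinase, was lower at -0.87 (SE 0.14, adjusted p = 0.00202), SFN, the 14-3-3 sigma protein that holds CDK1 and cyclin B1 in the cytoplasm, at -0.63 (SE 0.15, adjusted p = 0.0145), and GADD45B, a stress-induced growth arrest gene, at -0.49 (SE 0.12, adjusted p = 0.0205). The 45 tested genes of S phase and replication gave 21 lower and 2 higher in ARF-1, 16 and 2 for ARF-2, and 0 and 6 in ARF-4. Over the 9 arrays the smallest adjusted p values belonged to POLA2, a polymerase alpha subunit, higher at 0.48 (SE 0.10, adjusted p = 0.00985), GINS4 of the replicative helicase, higher at 0.54 (SE 0.12, adjusted p = 0.0119), and E2F2, an activator E2F, lower at -0.76 (SE 0.18, adjusted p = 0.0143).

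Where a member had more than 1 kept probe, the probes did not always give the same call. The 22 such genes have 26 further probes. In ARF-1 the brightest probe was called for 9 of these probe pairs, of which the other probe was called the same way in 5 and not called in 4, and 6 further probes were called where the brightest was not. In ARF-2 the same counts were 8, 5, 3 and 5, in ARF-4 1, 0, 1 and 3, and over the 9 arrays 7, 1, 6 and 4. An opposite call was seen in 0 pairs in these 4 comparisons. In ARF-4 minus ARF-1 the same counts were 1, 1, 0 and 4, and in ARF-4 minus ARF-2 they were 2, 1, 1 and 6. No pair with its brightest probe had an opposite call there either. For BUB3, however, further probes were called in opposite directions in ARF-4 minus ARF-2.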

How the data were processed

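The bead signals, on an intensity scale that was not normalized, and their detection p-values were deposited by the authors, and the submitters' processing notes name BeadStudio 2.3.47. Processed intensity values in a second deposited table equal the quantile normalization of these signals (largest log2 difference 6.1e-07) and served as an alternative. Of 47323 probes listed, 12 had empty values; by platform annotation 30113 carried 1 symbol, 8 several and 17202 none. Background correction and quantile normalization to log2 values used the neqc function (offset 16) of limma 3.58.1, run in R 4.3.3. Probes needed a detection p below 0.05 on at least 3 of 12 arrays, which left 22195. A gene is its brightest kept probe. Fits used limma with 2 condition means (9 arrays against 3) or 4 group means, a moderated F-test among the 3 sets, two-sided tests and Benjamini-Hochberg adjustment over all kept probes; SE is the standard error. The number of arrays limits the precision. Array-by-array values are given for members past the threshold over the 9 arrays, in the F-test or in at least 2 sets, and for CDK1, CCNB1, PLK1, AURKA and FOXM1. Other members are given by range, and up to 3 genes of each other list by adjusted p. Members and lists were chosen with earlier results of these data known. The main fits did not pair the arrays by replicate number. Deviations of same-numbered arrays correlated between -0.02 and 0.04, and 8 of 12 arrays correlated best with an array of their own number.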

Additional observations from a re-analysis of the deposited data

Results flagged for a closer look

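The 15 members below differed among the ARF-1, ARF-2 and ARF-4 sets by the moderated F-test in limma, which compares the 3 sets directly. They are 30% of the 50 members, against 24.1% of all genes, so their number is no result about the members as a group. The adjusted p is given for each. FOXM1 had 1.9e-04, CDC20 7.1e-04, TPX2 0.00209, ASPM 0.00338 and ECT2 0.00462. CDCA3 had 0.0121, CDCA8 0.0127, CCNF 0.0136, KIF4A 0.0174 and MKI67 0.022. AURKB had 0.0315, CDC25B 0.0332, NDC80 0.036, CCNB1 0.0409 and BIRC5 0.049. In 13 of these the ARF-4 mean was higher than those of the ARF-1 and ARF-2 sets, and in ASPM and ECT2 it was lower. The same split was not counted over all genes that passed the F-test. A second BIRC5 probe, ILMN_1803124, did not pass this F-test (adjusted p = 0.0605). Over the 9 arrays no single array stood apart from the others by Dixon's test in any of the 50 members (0 of 50). The test pooled the 3 sets, so differences between sets widen the range, and an array apart within its own set can be missed. AURKA in ARF-2 is such a case, where replicate 3 lies above scramble and the other ARF-2 arrays lie below it.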

How the results depend on the processing

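Of 82 gene-level differences, 0 turned direction together with a call under the alternatives run. All 82 were recomputed under each, except that the random block, the fit without ARF-4 and that with 4 group means apply to 20 of them and the fit on only the 6 arrays compared to 62. Counts of members moved more. The authors' value table equals the signals quantile normalized without background correction, so these alternatives are the same setting under both names. The share of all genes called was not counted under these alternatives, so a move of the members cannot be told apart from one of all genes. Over the 9 arrays, 14 lower members became 22 without background correction and with the authors' value table, 9 with median scaling, 24 with array weights and with 4 group means, 25 without the ARF-4 arrays and 1 with the set entered as a random block (statmod 1.5.0). The 1 higher member became 2 without background correction, with the authors' table and without ARF-4, and 0 with median scaling, the mean of the probes of a gene and the random block. In ARF-1, lower members became 13 with median scaling, and higher members 0 with median scaling and 1 with only the 6 arrays compared. In ARF-2, higher members became 0 with median scaling and 1 with the 6 arrays compared. In ARF-4, lower members became 19 without background correction and with the authors' table, 15 with normexp at an offset of 50 and with detection p below 0.01 on all arrays, 14 with the mean of the probes, and 0 with median scaling and with the 6 arrays; higher members became 2 without background correction and with the authors' table, and 1 with the mean of the probes. Members differing among the sets became 1 with median scaling; ARF-4 minus ARF-1 became 1 with median scaling, and ARF-4 minus ARF-2 became 4 with median scaling and 9 with the 6 arrays. The cause was not tested. Leaving out 1 array at a time gave 0 to 16 lower and 0 to 1 higher members over the 9 arrays, 17 to 23 and 1 to 2 in ARF-1, 17 to 21 and 1 to 1 in ARF-2, 0 to 5 and 0 to 0 in ARF-4, 7 to 13 among the sets, 9 to 13 for ARF-4 minus ARF-1, 10 to 15 for ARF-4 minus ARF-2 and 0 to 0 for ARF-2 minus ARF-1. The deviations of same-numbered arrays correlated only between -0.02 and 0.04, although 8 of 12 arrays correlated best with an array of their own number. Whether arrays of the same number share a round of work was not tested. With the replicate block, lower members became 3 in ARF-4 and higher members 1 in ARF-2, and the other counts stayed within 1.5 times. A slide block was not run, since the headers name no slide. Signals near background limit the weakest probes.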
